A study of Mus musculus with 6 samples.

Results

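The genes described here encode the proteasome: the subunits of its core particle, its regulatory cap, its other activators and the chaperones that assemble it. They were taken as the protein-coding genes whose symbol starts with Psma, Psmb, Psmc, Psmd, Psme or Psmg followed by a digit, without the interferon-inducible Psmb8, Psmb9 and Psmb10. The rule matched 46 of the 55335 genes in the table, and 44 of these reached a mean of 0.5 FPKM (a fragment count corrected for transcript length and library total) over the 6 libraries, as 13367 genes did in all. Psma8, the testis form of an alpha subunit, stayed under this level with a mean of 0.469 FPKM, and Psmb11, the thymus form of a beta subunit, was at 0.0118 FPKM or less in every library. The lowest that passed was Psmc3ip, with a mean of 1.34 FPKM. The 44 comprised 14 core subunits (7 alpha and 7 beta), 17 cap subunits (9 of the base and 8 of the lid), 5 activators, 7 chaperones and Psmc3ip. Psmc3ip matches the prefix only by its name, since it encodes a partner protein of meiotic recombination and no part of the proteasome.

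The proteasome degrades proteins that carry ubiquitin chains. Its barrel-shaped core is built of stacked rings of alpha and beta subunits with the cutting sites inside, and the 19S cap binds ubiquitin, unfolds the substrate with a ring of ATPases and feeds it into the core. In macrophages, interferon-gamma replaces the catalytic beta subunits by inducible ones and raises the PA28 activator, which binds the ends of the core and serves the making of peptides for MHC class I.

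The 6 libraries were of bone marrow-derived macrophages (BMDMs) from WT mice, grown for 7 days with 25 ng/ml macrophage colony-stimulating factor. They were co-cultured for 24 h with neutrophils that magnetic sorting had taken from the spinal cord lesion at 3 days post injury (dpi). The neutrophils came from Cd177 WT mice in 3 libraries, labelled WT N, and from Cd177 KO mice in the other 3, labelled KO N. After co-culture the macrophages were recovered by FACS as Ly6G- cells. The mice were adult males by the methods (C57BL/6, with Cd177-/- mice bought as a line), and the macrophages themselves carried no deletion in either group. Neither the labels nor the methods say that replicates came from separate cultures. The p-values therefore measure only the spread between these libraries, which may be technical. The comparison addresses what the loss of CD177, a surface protein of neutrophils, in the neutrophils changes in the macrophages beside them.

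Cd177 stood at 0.544, 0.309 and 0.521 FPKM in the libraries labelled WT N and 1.79, 1.84 and 2.28 FPKM in those labelled KO N, which runs against the labels, so all directions below are between libraries as labelled. All 10 macrophage markers reached a mean of 0.5 FPKM over the 6 libraries. Cd163 did so only through the libraries labelled KO N (0.166, 0.132 and 0.082 FPKM against 3.21, 3.27 and 2.42 FPKM). The 10 had a summed level of 6737 to 8081 FPKM in the libraries labelled WT N and 7323 to 8009 FPKM in those labelled KO N. That sum was mostly Lyz2 (4462 to 5732 FPKM and 5881 to 6588 FPKM), and single markers moved both ways. Cd14 (log2 fold change -3.33) and Fcgr1 (-1.83) were lower, while Cd163 (2.46), Mertk (0.72) and Adgre1 (0.30) were higher. The 15 neutrophil markers summed to 189 to 251 FPKM and to 542 to 556 FPKM. Of the 11 that were tested, 10 were higher in the libraries labelled KO N, compared with 27.1% of all tested genes. Mmp8 was lower (log2 fold change -1.12). Cxcr2 and Cd177 averaged 0.382 and 0.458 FPKM in the libraries labelled WT N, so they were tested only because of their levels in those labelled KO N. Markers of B cells (5 genes) summed to 0.711 to 1.35 FPKM and to 13.0 to 15.4 FPKM, and those of T cells (5 genes, Cd3d at 0 throughout) to 1.44 to 2.12 FPKM and to 5.07 to 6.03 FPKM. Spinal cord markers (5 genes, Snap25 at 0 throughout) summed to 4.66 to 5.94 FPKM and to 5.81 to 7.08 FPKM. The part of these cells in the results below was not tested, and in bulk RNA fewer cells of a type and less RNA per cell cannot be told apart. The deposited table gives no counts. In genes of 1 transcript, 36.8% to 40.8% of low values came within 0.1 of whole multiples of the commonest step in a library, where 20% would by chance, so reads were not recovered and the depth is unknown.

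More proteasome genes were lower than higher in the libraries labelled KO N. Of the 44, 14 (31.8%) were lower and 1 (2.27%) was higher past an adjusted p of 0.05 by limma (Benjamini-Hochberg over the 13367 tested genes), whereas 10.5% of all tested genes were lower and 27.1% were higher. In 21 of the 44 genes (47.7%) every library labelled KO N lay below every library labelled WT N, compared with 14.4% of all tested genes. The median log2 fold change, on the scale of log2(FPKM + 0.5), was -0.27 over the 44 genes and 0.19 over all tested genes, and 42 of the 44 genes lay below the latter. The 44 genes together took 0.596%, 0.581% and 0.698% of the summed FPKM of the libraries labelled WT N and 0.446%, 0.453% and 0.475% of those labelled KO N. Without KO N replicate 1 only 7 genes were lower (and 7.83% of all tested genes), without KO N replicate 2 only 8 (8.04%), and without both replicate 3 libraries 26 (14.5%). Without WT N replicate 3 there were 14 (12.85% of all tested genes), and the median log2 fold change was -0.17. Dividing each library by its median ratio to a reference brought the median of all tested genes to -0.01 and that of the proteasome genes to -0.50, with 24 lower (16.9% of all tested genes) and 0 higher.

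**Figure D1:**
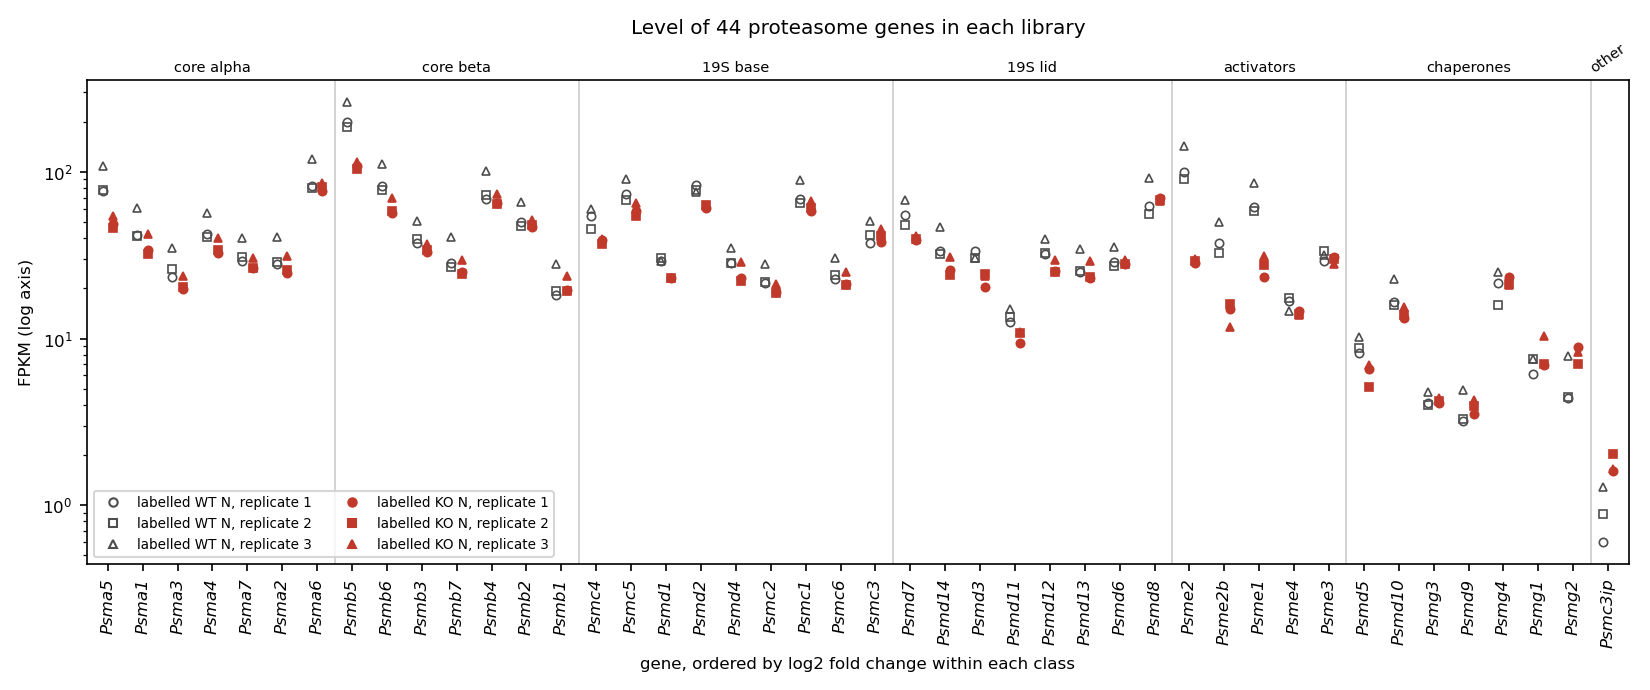
FPKM (log axis) of the 44 genes in each library, by class and, within a class, in the order of their log2 fold change; open symbols are libraries labelled WT N, filled symbols those labelled KO N, and the marker shape gives the replicate. The triangle of WT N replicate 3 lies above the other libraries of its group in most genes, and the groups are farthest apart in Psme2, Psme2b, Psme1 and Psmb5.

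One library stood apart in these genes. In WT N replicate 3 the 44 genes lay a median of 0.43 (log2) above the mean of the other libraries of the group, 40 of them above it, while all tested genes lay at a median of -0.02. The shift had a Pearson r of -0.55 with log2 transcript length over the 44 genes and of -0.31 over all tested genes, and among the 17 proteasome genes with the shortest transcripts it had an r of 0.08. These genes share the library, so this is a description. KO N replicate 3 lay 0.17 above the rest of its group, with 38 of 44 genes above 0. The reason for these shifts was not tested. Because they move most proteasome genes together, each level is also given below relative to the median of the 14 core subunits in the same library, the gene itself left out. On that scale 7 of the 44 genes (15.9%) were lower and 16 (36.4%) were higher without overlap, compared with 5.81% and 54.2% of all tested genes.

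Promoter sequences were searched for motifs, because many proteasome genes carry an antioxidant response element and PA28 genes answer to interferon. RefSeq windows on GRCm38.p6 (250 bases before to 50 after the start of a gene) were held for 37 of the 44 genes, in 40 windows. TGACNNNGC, the core of the antioxidant response element, was found on either strand in 6 of the 40 (15%) and in 12.4% of all 32851 windows. GAAANNGAA, the core of the interferon-stimulated response element, was found in 7 (17.5%) and in 8.56% of all. CCAAT was found in 13 (32.5%) and in 37.4% of all, and TTCNNNGAA, the gamma-activated site, in 2 (5%) and in 8.30% of all. The stretches below are those of Psmb5 (chr14:54617976-54618115, minus strand) and Psmb6 (chr11:70525237-70525376, plus strand), the called catalytic genes, and of Psme1 (chr14:55578374-55578513, plus strand). They run from 120 bases before the RefSeq start to 20 bases from it, 5′ to 3′ on the strand of the gene. Capitals mark TGACNNNGC in Psmb5, 47 bases before the start, and in Psmb6, 9 bases before it, and GAAANNGAA on the opposite strand in Psme1, from base 11 of the transcript.
Psmb5: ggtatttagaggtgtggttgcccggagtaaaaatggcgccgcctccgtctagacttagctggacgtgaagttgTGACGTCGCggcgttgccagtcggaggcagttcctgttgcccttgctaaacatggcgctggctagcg
Psmb6: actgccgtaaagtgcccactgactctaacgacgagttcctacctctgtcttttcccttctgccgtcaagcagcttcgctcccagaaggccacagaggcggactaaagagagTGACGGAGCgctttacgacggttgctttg
Psme1: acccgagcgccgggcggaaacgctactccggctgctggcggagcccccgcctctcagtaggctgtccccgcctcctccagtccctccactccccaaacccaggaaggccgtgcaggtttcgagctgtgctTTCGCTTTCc
Psme2 and Psma5, both lower, hold none of the 4 motifs in their windows, which says only that these letters are not there. The other windows with TGACNNNGC are those of Psmc6, Psmd12, Psmd9 and Psme4, of which Psmd12 was called lower. GAAANNGAA lies, besides Psme1, in the windows of Psmb3, Psmb4, Psmc2, Psmd4, Psmd9 and Psmg4, none of them called on the values as deposited.

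The PA28 activator carried the largest differences of the set. Psme2, the beta subunit of PA28 (chromosome 14 from 55587441 to 55591113, minus strand, in GENCODE M21 on GRCm38), was measured at 99.1, 90.3 and 142.6 FPKM in the libraries labelled WT N and 28.2, 29.2 and 29.8 FPKM in those labelled KO N. The groups were far apart, and the libraries labelled KO N hardly differed from each other. Its log2 fold change was -1.88 (standard error, SE, 0.17, limma adjusted p = 0.000291). Psme1, the alpha subunit, whose promoter stretch is shown above (chromosome 14 from 55578123 to 55581529, plus strand), had 61.2, 58.4 and 85.7 FPKM and 23.3, 27.6 and 31.4 FPKM, a log2 fold change of -1.29 (SE 0.18, adjusted p = 0.00168). Both genes lie close together on opposite strands, and the ratio of Psme2 to Psme1 was 1.62, 1.55 and 1.66 in the libraries labelled WT N and 1.21, 1.06 and 0.949 in those labelled KO N. The ratio was lower in each library labelled KO N than in any labelled WT N. With 3 libraries against 3, an exact permutation test of such a ratio cannot go below 0.1.

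Psme2b is a copy of Psme2 without introns on chromosome 11 (48945354 to 48946190). It was at 37.2, 32.7 and 49.8 FPKM in the libraries labelled WT N and 15.0, 16.1 and 11.7 FPKM in those labelled KO N (log2 fold change -1.44, limma adjusted p = 0.00129). Of its stretches of 50 bases, 68.7% also occur in Psme2, and 59.3% of those of Psme2 occur in Psme2b, so reads could fall to either gene and both levels are uncertain to that extent. The remaining activators work mainly in the nucleus and did not pass on the values as deposited. Psme3, which encodes PA28 gamma, had 29.0, 33.4 and 31.6 FPKM and 30.9, 30.0 and 27.9 FPKM, overlapping between groups, with a log2 fold change of -0.08 (SE 0.09, adjusted p = 0.521). Psme4, the large activator PA200, had 16.8, 17.5 and 14.7 FPKM and 14.5, 13.9 and 13.8 FPKM, with a log2 fold change of -0.20 (SE 0.09, adjusted p = 0.137). All of its libraries labelled KO N lay just below those labelled WT N. Psme4 did pass as lower with median-of-ratios scaling (-0.42, limma adjusted p = 0.0103) and without WT N replicate 3 (-0.27, adjusted p = 0.0224), and Psme3 with median-of-ratios scaling (-0.30, adjusted p = 0.0408).

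Psme1 and Psme2 are themselves interferon targets, so the word constitutive does not describe them. The interferon genes Irf1 and Tap1, set beside them, were lower in the libraries labelled KO N. Irf1, a transcription factor that interferon induces, was at 45.5, 44.9 and 52.4 FPKM in the libraries labelled WT N and 11.1, 11.6 and 12.0 FPKM in those labelled KO N (log2 fold change -1.99, limma adjusted p = 1.44e-05). Tap1, the peptide transporter of antigen presentation, had 21.4, 21.3 and 16.9 FPKM and 5.79, 3.83 and 5.71 FPKM (log2 fold change -1.87, adjusted p = 0.000348).

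In the core particle, all 14 subunits had log2 fold changes under 0 (median -0.27). Psmb5, Psma5 and Psmb6 were lower, which is 3 of 14 (21.4%), compared with 10.5% of all tested genes. The median was -0.38 over the alpha and -0.25 over the beta subunits, and without WT N replicate 3 it was -0.21 and -0.07. The summed level of the core subunits was 809, 796 and 1120 FPKM in the libraries labelled WT N and 617, 617 and 706 FPKM in those labelled KO N. Although each subunit position is filled in equal number in the assembled particle, and inducible subunits can take the catalytic ones, transcript levels spread widely. Psmb5 was the highest in every library, and the lowest, Psmb1 or Psma3, stood 9.37 to 11.04 times below it in the libraries labelled WT N and 4.84 to 5.51 times below it in those labelled KO N.

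Psmb5 carries the chymotrypsin-like site, the target of proteasome inhibitors used in medicine (chromosome 14 from 54614119 to 54618022, minus strand). It stood at 199.9, 186.8 and 261.1 FPKM in the libraries labelled WT N and 108.1, 104.4 and 114.3 FPKM in those labelled KO N. No other core subunit differed as much, with a log2 fold change of -0.97 (SE 0.13, limma adjusted p = 0.00186). Relative to the median of the other core subunits it was 4.65 ± 0.118 (SD, n = 3) and 3.08 ± 0.196 (SD, n = 3), without overlap. Of its stretches of 50 bases, 57.1% occur in other genes, 49.4% in the pseudogene Gm3375, which had 10.6, 7.60 and 10.8 FPKM and 4.47, 5.16 and 5.10 FPKM.

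Psmb6, the caspase-like site (chromosome 11 from 70525367 to 70527858, plus strand), had 82.6, 77.5 and 110.7 FPKM and 56.8, 58.3 and 69.3 FPKM. It was lower by a log2 fold change of -0.54 (SE 0.15, limma adjusted p = 0.0327). This call was lost without WT N replicate 1, KO N replicate 1 or KO N replicate 2 (adjusted p = 0.0592, 0.108 and 0.104). Psmb7, the trypsin-like site, had 28.3, 26.7 and 40.4 FPKM and 25.0, 24.3 and 29.7 FPKM. Its groups overlapped, with a log2 fold change of -0.25 (SE 0.17, adjusted p = 0.295). Relative to the other core subunits Psmb6 went from 1.94 ± 0.040 to 1.73 ± 0.013 and Psmb7 from 0.663 ± 0.010 to 0.720 ± 0.021 (SD, n = 3 each). Each did so without overlap. Of all tested genes 5.81% lay lower and 54.2% higher without overlap relative to the core median, so Psmb7 moved as most genes did.

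These 3 catalytic subunits are the ones that the inducible Psmb8, Psmb9 and Psmb10 replace, all of which were lower too. Psmb8 was measured at 52.3, 47.7 and 65.8 FPKM in the libraries labelled WT N and 16.0, 15.3 and 16.9 FPKM in those labelled KO N (log2 fold change -1.74, limma adjusted p = 0.000127). Psmb9 had 8.77, 8.68 and 9.45 FPKM and 4.88, 4.86 and 5.71 FPKM (log2 fold change -0.75, adjusted p = 0.00146). Psmb10 had 68.6, 67.9 and 93.2 FPKM and 28.1, 26.5 and 33.4 FPKM (log2 fold change -1.36, adjusted p = 0.000741). A share within a library does not depend on the scaling of that library, so the inducible share of each pair was taken. Psmb8 made up 20.4% ± 0.318 of the FPKM of Psmb8 and Psmb5 in the libraries labelled WT N and 12.9% ± 0.070 in those labelled KO N (SD, n = 3 each). For Psmb10 with Psmb7 the share was 70.8% ± 1.02 and 52.7% ± 0.440. For Psmb9 with Psmb6 it was 9.60%, 10.1% and 7.86% against 7.92%, 7.70% and 7.62%. The first and the second of these pairs were wide apart, whereas in the pair of Psmb9 and Psmb6 the groups overlapped through WT N replicate 3. In every library Psmb10 exceeded Psmb7, while Psmb8 and Psmb9 stayed below their constitutive counterparts.

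**Figure D2:**
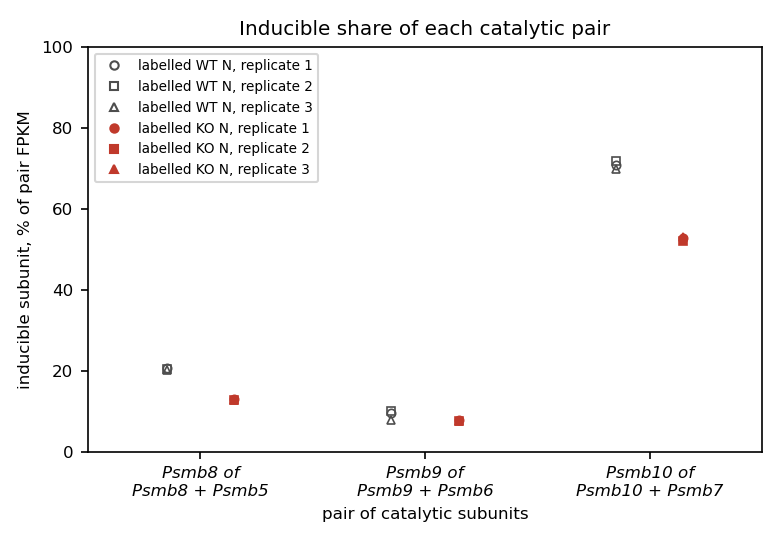
Share of the inducible subunit in the summed FPKM of each catalytic pair (percent, axis from 0 to 100), 1 point per library, open for libraries labelled WT N and filled for those labelled KO N. The share of Psmb8 lies near 20.4% and 12.9% and that of Psmb10 near 70.8% and 52.7%, while the points of Psmb9 overlap.

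Of the 7 alpha subunits, which form the gated outer rings of the core, 1 (14.3%) was lower, near the 10.5% of all tested genes. This was Psma5. It was at 76.8, 77.8 and 108.2 FPKM in the libraries labelled WT N and 48.9, 46.2 and 54.1 FPKM in those labelled KO N, without overlap. The log2 fold change was -0.79 (SE 0.15, limma adjusted p = 0.0065), and relative to the other core subunits its level went from 1.88 ± 0.038 to 1.40 ± 0.065 (SD, n = 3 each). Psma5 shares 54.5% of its stretches of 50 bases with other genes, 37.2% with the pseudogene Gm8394, at 4.49 to 5.39 FPKM and 2.51 to 2.87 FPKM. The other 6 alpha subunits had log2 fold changes from -0.39 (Psma1) to -0.19 (Psma6). Psma6, the least changed, had 82.5, 79.8 and 119.4 FPKM and 76.8, 81.0 and 85.9 FPKM, so its groups overlapped (adjusted p = 0.406). The 4 noncatalytic beta subunits lay between -0.29 (Psmb3) and -0.04 (Psmb1) and none passed the test. Psmb1 had 18.1, 19.4 and 27.9 FPKM and 19.6, 19.3 and 23.6 FPKM (adjusted p = 0.87). Leaving Psmb5 and Psma5 aside, the core had a median log2 fold change of -0.25. Of these 12 subunits 1 (8.33%) was lower, compared with 10.5% of all tested genes. Both genes left aside had been called lower, so this share had to fall and says nothing on the rest. All 12 lay below the median of all tested genes (0.19). In 3 of them (25%) every library labelled KO N lay below every library labelled WT N, compared with 14.4% of all tested genes.

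**Figure D3:**
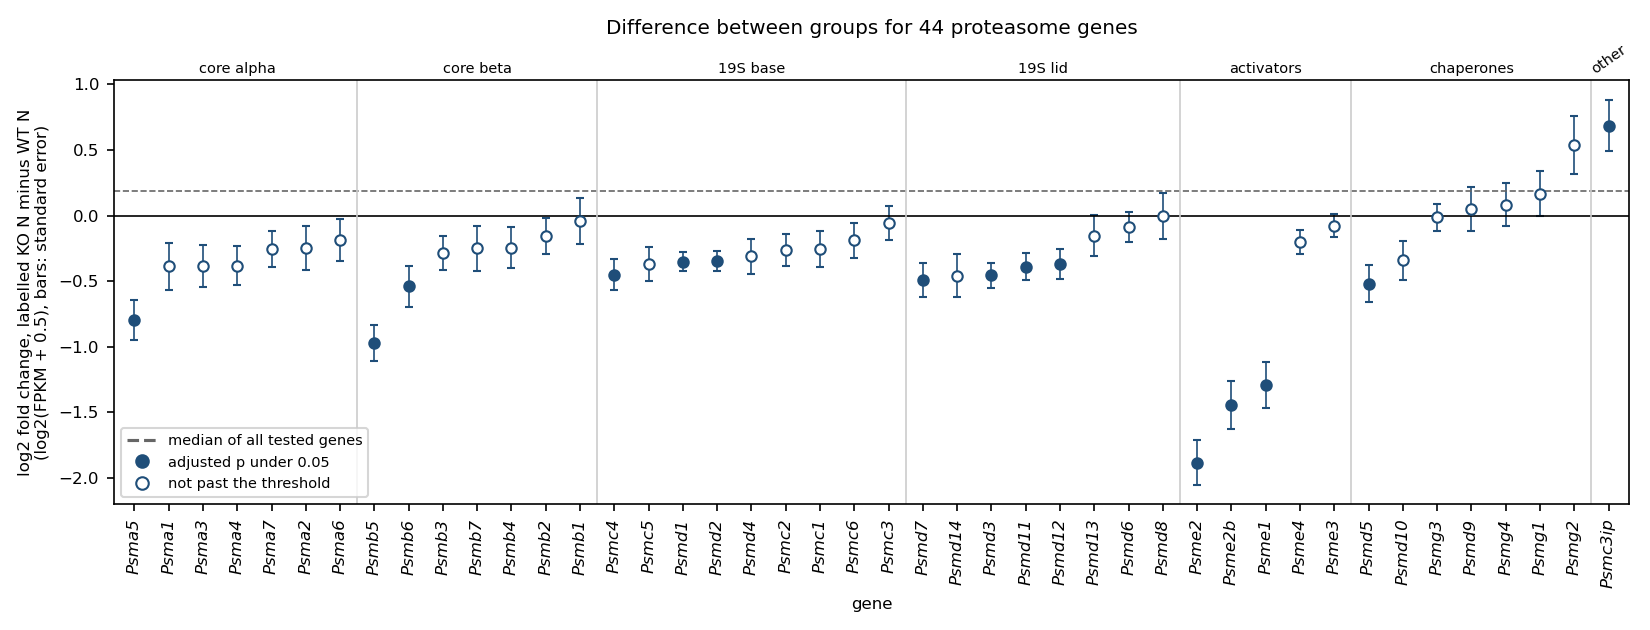
Log2 fold change of each of the 44 genes between libraries labelled KO N and WT N, on the scale of log2(FPKM + 0.5), with its standard error; filled points passed an adjusted p-value of 0.05 and the dashed line is the median of all tested genes (0.19). All core, cap and activator genes lie below 0, and 2 genes, Psmg2 and Psmc3ip, lie above the dashed line.

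The 19S cap was lower in 7 of 17 subunits (41.2%), compared with 10.5% of all tested genes. Its median log2 fold change was -0.34, and every estimate was under 0. Its summed level was 702, 667 and 848 FPKM in the libraries labelled WT N and 581, 584 and 638 FPKM in those labelled KO N. The 17 estimates ranged from -0.49 to -0.01. Relative to the core median 1 subunit, Psmd14, lay lower without overlap, at 0.792 ± 0.003 and 0.743 ± 0.026 (SD, n = 3 each). The 5 that lay higher were Psmc3, Psmc6, Psmd6, Psmd8 and Psmd13. Of all tested genes 5.81% lay lower and 54.2% higher on this scale, so the 1 lower subunit is near the background and the 5 higher ones are below it.

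In the base, which holds the ATPase ring and the scaffolds that bind ubiquitin receptors, Psmc4, Psmd1 and Psmd2 were lower. Psmc4, an ATPase, stood at 54.3, 45.1 and 59.9 FPKM in the libraries labelled WT N and 39.2, 37.0 and 39.3 FPKM in those labelled KO N (log2 fold change -0.45, SE 0.12, limma adjusted p = 0.0222). Its call did not hold without WT N replicate 1, nor when any 1 library labelled KO N was left out (adjusted p = 0.0714, and 0.066, 0.0804 and 0.053). Psmd1, one of the large scaffolds, had 29.2, 30.5 and 29.3 FPKM and 23.1, 23.2 and 23.1 FPKM, closely grouped on either side. Its log2 fold change of -0.35 had an SE of 0.07, the smallest of the 44 genes (adjusted p = 0.00865). Psmd2, the other scaffold, fell by 0.34 on the log2 scale (adjusted p = 0.0112), and without KO N replicate 1 its adjusted p was 0.0579. Both scaffolds have long transcripts, and WT N replicate 3 was not above the mean of its group in either. At the other end stood the ATPase Psmc3, with 37.6, 42.0 and 50.5 FPKM and 37.8, 41.3 and 45.2 FPKM (log2 fold change -0.06, adjusted p = 0.756).

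In the lid, which removes ubiquitin before degradation, Psmd7, Psmd3, Psmd11 and Psmd12 were lower. Psmd7, the partner of the lid's deubiquitinase, had 55.0, 47.9 and 67.9 FPKM and 39.2, 39.7 and 41.2 FPKM (log2 fold change -0.49, SE 0.13, limma adjusted p = 0.0261). Psmd3 had a log2 fold change of -0.45 (adjusted p = 0.0108), Psmd11 one of -0.39 (adjusted p = 0.0261) and Psmd12 one of -0.37 (adjusted p = 0.0457). Of these calls, that of Psmd3 held whichever library was left out. Psmd7 was lost without WT N replicate 1 and when any 1 library labelled KO N was left out (adjusted p = 0.065, 0.0844, 0.0803 and 0.0584), and Psmd11 without WT N replicate 2, KO N replicate 1 or KO N replicate 2 (0.0634, 0.0996 and 0.0645). The call of Psmd12 was lost when any 1 library labelled WT N was left out (0.0691, 0.0683 and 0.0574) and without KO N replicate 1 or 2 (0.14 and 0.147). Psmd14, the deubiquitinase itself, had a log2 fold change of -0.46 but did not pass (SE 0.16, adjusted p = 0.0664). It passed with median-of-ratios, upper-quartile, TPM and quantile scaling (adjusted p = 0.0283, 0.03635, 0.0315 and 0.047), with the replicate block (0.00848), after a correction for transcript length (0.00878) and without both replicate 3 libraries (0.00581). Psmd8 had 62.5, 56.2 and 91.2 FPKM and 70.0, 68.2 and 66.5 FPKM, which overlapped (log2 fold change -0.01, adjusted p = 0.985). Without both replicate 3 libraries it passed as higher (0.22, adjusted p = 0.048).

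The chaperones had no common direction around 0, with 3 estimates under 0 and 4 above. Below the median of all tested genes (0.19) lay 6 of the 7. Their summed level was 64.1, 60.0 and 83.1 FPKM in the libraries labelled WT N and 66.8, 62.5 and 70.6 FPKM in those labelled KO N, and their median log2 fold change was 0.05. That sign flips to -0.15 with median-of-ratios scaling and to -0.06 without WT N replicate 2. Of the 7 chaperones 1 (14.3%) was lower, near the 10.5% of all tested genes. This was Psmd5, a chaperone of the base, which went from 8.21, 8.74 and 10.2 FPKM to 6.58, 5.10 and 6.92 FPKM (log2 fold change -0.52, SE 0.14, limma adjusted p = 0.0272). It did not pass without WT N replicate 2, KO N replicate 1 or KO N replicate 2 (adjusted p = 0.0621, 0.0598 and 0.0787). The other chaperones of the base, Psmd10 (also called gankyrin) and Psmd9, did not pass, at log2 fold changes of -0.34 and 0.05 (limma adjusted p = 0.114 and 0.836).

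Psmg1 to Psmg4 build the alpha ring, Psmg1 with Psmg2 and Psmg3 with Psmg4. None of them passed the test. Psmg2 was measured at 4.40, 4.48 and 7.88 FPKM in the libraries labelled WT N and 8.86, 7.05 and 8.33 FPKM in those labelled KO N, with a log2 fold change of 0.54 (SE 0.22, limma adjusted p = 0.101). The groups overlapped through WT N replicate 3 alone, and without it the log2 fold change was 0.79 and passed (limma adjusted p = 0.00306). Psmg1 had 6.13, 7.54 and 7.56 FPKM and 6.98, 7.00 and 10.4 FPKM (log2 fold change 0.17, adjusted p = 0.482). Psmg3 had 4.13, 3.996 and 4.80 FPKM and 4.11, 4.24 and 4.42 FPKM (log2 fold change -0.01, adjusted p = 0.936). Psmg4 had 21.5, 15.9 and 25.2 FPKM and 23.4, 21.3 and 20.8 FPKM (log2 fold change 0.08, adjusted p = 0.722). These levels overlapped between the groups. Relative to the core median, Psmg1 (0.153 ± 0.028 and 0.223 ± 0.025), Psmg2 (0.116 ± 0.016 and 0.225 ± 0.034) and Psmg3 (0.092 ± 0.009 and 0.119 ± 0.010, SD, n = 3 each) were higher without overlap in the libraries labelled KO N, as 54.2% of all tested genes were.

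**Figure D4:**
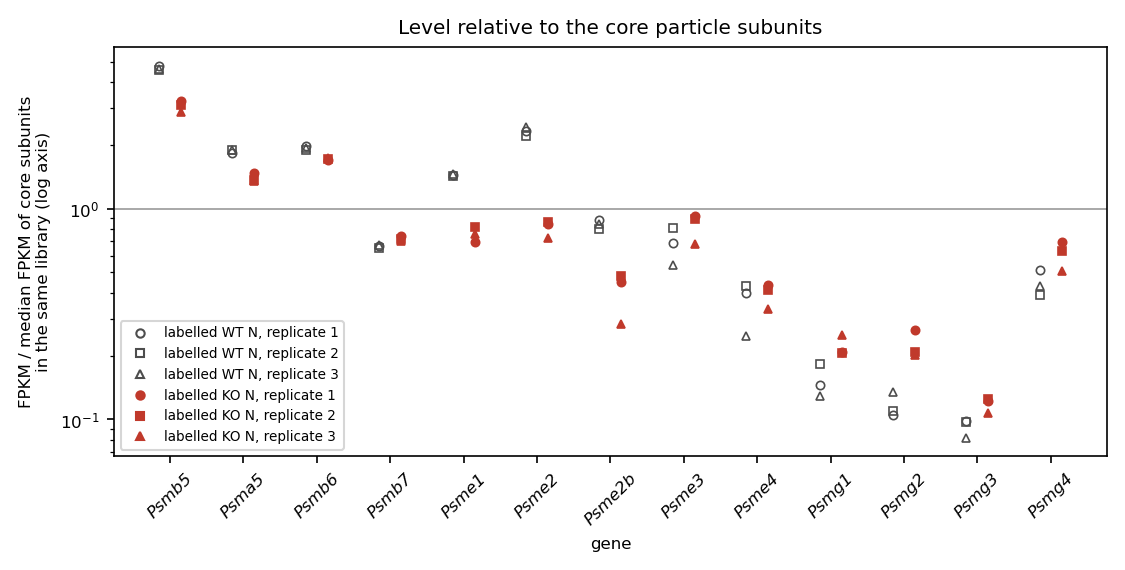
FPKM of single genes divided by the median FPKM of the core subunits in the same library, the gene itself left out (log axis), 1 point per library, open for libraries labelled WT N and filled for those labelled KO N. Psmb5, Psma5, Psmb6, Psme1, Psme2 and Psme2b lie lower in the libraries labelled KO N, while Psmb7, Psmg1, Psmg2 and Psmg3 lie higher, each without overlap. Of all tested genes 5.81% lie lower and 54.2% higher without overlap on this scale.

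Psmc3ip was the 1 gene called higher, and it is no proteasome subunit. It was at 0.602, 0.881 and 1.29 FPKM in the libraries labelled WT N and 1.60, 2.02 and 1.65 FPKM in those labelled KO N (log2 fold change 0.69, SE 0.20, limma adjusted p = 0.0331). It did not pass when any 1 library other than WT N replicate 3 was left out (adjusted p = 0.0816 and 0.0823 without WT N replicates 1 and 2, and 0.072, 0.11 and 0.069 without KO N replicates 1, 2 and 3). Of its annotated exon bases, 21.2% overlap Mlx on the opposite strand. Without it, 14 of 43 genes (32.6%) were lower and 0 were higher (limma), compared with 10.5% and 27.1% of all tested genes. An unadjusted p-value under 0.05 was reached by 19 of the 43 and by 6321 of the 13367 tested genes, a similar share.

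Other genes of the ubiquitin-proteasome pathway were counted against the 10.5% of all tested genes that were lower and the 27.1% that were higher. Of 11 tested assembly and cap proteins with other names, 1 (9.09%) was lower and 1 (9.09%) was higher (median log2 fold change -0.06), and Paaf1 was not analysed here. Adrm1, a ubiquitin receptor of the cap, was lower (17.6, 16.6 and 19.7 FPKM against 13.9, 13.1 and 15.6 FPKM, log2 fold change -0.33, limma adjusted p = 0.0492). Its call was lost without WT N replicates 1, 2 or 3 (adjusted p = 0.105, 0.0598 and 0.0723) and without KO N replicates 1 or 2 (0.142 and 0.163). Akirin2, which carries proteasomes into the nucleus, was higher (15.7, 16.7 and 18.6 FPKM against 22.7, 22.4 and 25.8 FPKM, log2 fold change 0.46, adjusted p = 0.0116), though not after median-of-ratios scaling (0.24, adjusted p = 0.158). Of 16 genes that supply ubiquitin or deliver substrates, 2 (12.5%) were lower and 2 (12.5%) were higher (median -0.06). Vcp, the segregase that extracts ubiquitinated proteins, fell from 142.0, 140.2 and 140.3 FPKM to 104.5, 103.7 and 103.7 FPKM (log2 fold change -0.44, adjusted p = 0.00299). Ubqln2, a shuttle that binds ubiquitin and the cap, was higher at 17.6, 17.3 and 18.1 FPKM against 24.0, 23.4 and 22.8 FPKM (log2 fold change 0.40, adjusted p = 0.00608). After median-of-ratios scaling it did not pass (0.17, adjusted p = 0.141).

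Among 13 regulators of proteasome genes, 2 (15.4%) were lower and 3 (23.1%) were higher (median log2 fold change 0.13). The lower shares of all 3 lists are near that of all tested genes. Nfe2l1, which drives proteasome genes when the proteasome is impaired, stood at 10.4, 9.53 and 5.01 FPKM in the libraries labelled WT N and 10.5, 9.72 and 33.3 FPKM in those labelled KO N. KO N replicate 3 alone was high, and the gene did not pass (log2 fold change 0.89, SE 0.50, limma adjusted p = 0.204). It was chosen for its role and for this library after its values were seen. Maff, a small Maf partner of such factors, was lower with 12.6, 13.4 and 13.4 FPKM against 6.36, 6.16 and 5.66 FPKM (log2 fold change -1.06, adjusted p = 0.000195). Ngly1, the enzyme that removes the sugars of Nfe2l1 protein, was higher with 2.00, 1.97 and 2.86 FPKM against 4.11, 4.16 and 4.37 FPKM (log2 fold change 0.78, adjusted p = 0.0059).

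Large complexes of housekeeping use, with 8 to 14 tested genes each, were set beside the proteasome. Of all tested genes 10.5% were lower and 27.1% were higher, and in lists this short 0 or 1 lower is near that share. An unadjusted limma p-value under 0.05 was reached by 6321 of the 13367 tested genes, so the counts at that level below are no excess. The COP9 signalosome, a relative of the lid, had 0 of 10 genes lower and 1 higher (limma), with 3 at an unadjusted p-value under 0.05 and a median log2 fold change of 0.15. The translation factor eIF3, another relative, had 1 of 14 lower and 3 higher (median 0.07). The chaperonin CCT had 0 of 8 in either direction, 0 at an unadjusted p-value under 0.05, and a median of -0.02. Below the median of all tested genes (0.19) lay 5 of the 10 COP9 genes, 9 of the 14 eIF3 genes and all 8 CCT genes.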

How the data were processed

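Levels were deposited by the authors as FPKM for 55335 mouse Ensembl identifiers in each library. The submitters' processing notes name fastp 0.17.1, HISAT2 2.1.0, DESeq2 1.18.1 and R 3.4.3, and the quantifier and the build are not given in the sources used here. RNA reagent, library kit and sequencer differ between the labels and the methods. All 6 columns matched a sample by title. Symbols and positions came from GENCODE M21 (GRCm38), which held 55154 identifiers (99.7%).

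Values were tested as log2(FPKM + 0.5), which understates changes of low genes, with limma 3.58.1 in R 4.3.3 (lmFit, eBayes with trend, two-sided, no covariate) in the 13367 genes averaging 0.5 FPKM or more, with Benjamini-Hochberg adjustment over all of them. No count test was run. The fit was tested on simulated data. Sequence shared between genes was counted as exact stretches of 50 bases in the GENCODE transcripts, which bears on how reads could be split.

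The proteasome genes, pathway and marker lists and motifs were chosen with earlier results of these data known. Values in every library are given for the catalytic subunits and their inducible counterparts, each activator, Psmg1 to Psmg4, the highest and lowest log2 fold change of each class, genes called against the majority, and the largest call in each direction of each pathway list. Psmd1 and Nfe2l1 were added after their values were seen. Alternatives covered pseudocounts, filters, scaling, variance, the replicate number as a block and each library left out. Leaving out both replicate 3 libraries, the correction for transcript length and scaling together with the block were chosen after seeing the data. The remaining steps used pandas 2.3.3, numpy 2.4.6 and, for figures, matplotlib 3.10.9, under Python 3.11.15.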

Additional observations from a re-analysis of the deposited data

How the results depend on the processing

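Under every alternative that kept the adjusted threshold of 0.05, 7 of the 14 genes called lower kept their call (Psma5, Psmb5, Psmd1, Psmd3, Psme1, Psme2 and Psme2b). The number of proteasome genes lower, 14, was 24 after scaling by median of ratios, 22 by upper quartile, 23 with the replicate block, 36 with median-of-ratios scaling and the block together, 26 without both replicate 3 libraries, 28 after the correction for transcript length and 6 at an adjusted p of 0.01. Of all tested genes, 10.5% were lower as reported and 16.9%, 16.1%, 12.6%, 20.8%, 14.5% and 17.5% under the first 6 of these. The share of all tested genes at an adjusted p of 0.01 was not counted. Leaving out 1 library gave 7 to 14 lower and 0 to 2 higher. In these runs 7.83% to 12.85% of all tested genes were lower, and 2442 to 4228 of the 13367 were higher. The number higher, 1, was 0 at a mean of at least 5 FPKM, with no filter, with median-of-ratios scaling (with and without the block), upper-quartile or quantile scaling and at an adjusted p of 0.01. It was 3 without both replicate 3 libraries, where 4518 of the 13367 tested genes were higher. The filter of 5 FPKM leaves out Psmc3ip by its construction, and for the other changes the cause was not tested. Scaling by median of ratios or by upper quartile moved the median of all tested genes from 0.19 to -0.01 and 0.00031, and the share of higher among all calls from 72.0% to 47.7% and 49.6% (55.7% with quantile normalization, 54.4% after the length correction). All tested genes counted 2259 lower and 2057 higher by median of ratios, and 2152 and 2122 by upper quartile.

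The median log2 fold change of the proteasome genes moved to -0.50 with median-of-ratios scaling, with or without the block, and to -0.49 with upper-quartile scaling. By class, median-of-ratios scaling gave -0.47 for core beta, -0.54 for the base, -0.60 for the lid, -1.52 for the activators and -0.15 for the chaperones, again with or without the block, and upper-quartile scaling -0.52 for the base, -0.59 for the lid and -0.14 for the chaperones. The chaperone median was -0.165 with quantile normalization, -0.0903 after the length correction, and between -0.0586 and 0.22 with 1 library left out.

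Estimates near 0 changed sign, none of them called before, and 1 of them (Psmd8) called after. Psmd9 was at -0.15 and -0.14 by median of ratios and upper quartile, -0.165 by quantile and -0.0784 after the length correction. Psmg1 was at -0.0464 and -0.033 by the first and second of these, and Psmg4 at -0.14 and -0.13, with -0.0903 after the length correction. The block left the median-of-ratios values as they were. Psmd8 was at 0.0118 by rescaling to TPM, 0.0050 by quantile and 0.22 without both replicate 3 libraries, where it passed as higher (limma adjusted p = 0.048), Psmg3 at 0.0031 and 0.0351 by the first and last of these, and Psmb1 at 0.0527 by the last. With 1 library left out the ranges were -0.15 to 0.0561 for Psmc3, -0.16 to 0.0271 for Psmd6, -0.15 to 0.20 for Psmd8, -0.0439 to 0.22 for Psmd9, -0.011 to 0.26 for Psmg1, -0.0586 to 0.0594 for Psmg3, -0.0933 to 0.23 for Psmg4 and -0.16 to 0.14 for Psmb1.

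Both groups carry replicate numbers 1 to 3, and same-numbered libraries correlated at 0.116, 0.036 and 0.264 in their deviations from the group means. WT N replicate 1 correlated best with KO N replicate 2 (0.160), so the numbers were not taken to pair the samples. The value of 0.264, for the replicate 3 libraries, was the highest between the groups. Each of them correlated negatively with the other-numbered libraries of the other group (-0.233 to -0.131). An effect shared by the replicate 3 libraries was not tested. Read depth is not in the table, so no counting error can be given, and genes that share sequence with a copy carry an error that the replicates do not show.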
